A study of Mus musculus with 6 samples.

Results

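The enzymes that make asparagine and serine, and those that pass the carbon of serine on to folate, were followed in Lewis cells, a mouse lung carcinoma line, after 24 hours with SD70, an inhibitor of the histone demethylase KDM4C, or with its vehicle DMSO. The genes were chosen by name, with earlier results of these data known. They are Asns, Phgdh, Psat1, Psph, Shmt1, Shmt2, Mthfd1, Mthfd2, Mthfd1l and Aldh1l2, which makes 10 of the 16081 genes listed in the files. All 10 had enough counts to be tested, among 11552 genes in all. RNA-seq was done on 3 DMSO samples and 3 SD70 samples, all of the same unmodified line in DMEM with serum. The sources used here give no SD70 dose for this experiment. The paper's statistics section says in general that its experiments were done several times independently, but the sources do not say for these libraries whether the 3 samples of a group came from separate cultures, so the p-values measure the spread between these samples, which may be technical.

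In mammalian cells, Phgdh, Psat1 and Psph turn a glycolytic intermediate into serine by oxidation, transamination and dephosphorylation, in that order. The serine hydroxymethyltransferases Shmt2 in mitochondria and Shmt1 in the cytosol split serine into glycine and a one-carbon unit on tetrahydrofolate. In mitochondria this unit is oxidised by Mthfd2 and released as formate by Mthfd1l, or oxidised to carbon dioxide by Aldh1l2, whereas in the cytosol the trifunctional enzyme Mthfd1 takes formate up again for the synthesis of purines and thymidylate. Asns makes asparagine from aspartate and glutamine. Many tumour cells depend on these enzymes, and the factor ATF4, which cells make when amino acids run short, is known to act on several of the genes.

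Totals ranged from 15276744 to 17060424 counts per sample, and the lowest was that of SD70 sample 3. The label calls the cells lung adenocarcinoma. Of 5 epithelial markers, Krt8 and Krt18 were tested while Epcam, Cdh1 and Krt19 had at most 10 counts in every sample, and of 4 lung epithelial markers 1 was listed, Sftpc, also with at most 10. Krt8 was at 146 FPKM with DMSO and 97.8 with SD70, and Krt18 at 4.32 and 1.81. Of 3 mesenchymal markers, Vim was at 2489 FPKM with DMSO and 1765 with SD70, Fn1 at 73.6 and 61.1, and Cdh2 had at most 1 count in any sample. Of 4 fibroblast markers, Dcn was at 36.2 FPKM with DMSO and 31.15 with SD70, and Pdgfra at 16.7 and 8.11. The other fibroblast markers, Col1a1 and Col1a2, had at most 11 counts in any sample and were not tested. The summed level of 4 listed immune markers lay between 1.33 and 1.92 FPKM with DMSO and between 1.33 and 2.40 with SD70. FPKM is the level scaled by transcript length and library size. Of the markers tested, Krt8, Krt18, Vim, Fn1, Dcn and Pdgfra fell at an adjusted p under 0.01 by edgeR, Krt18 by most (-1.22 on the log2 scale), and the part of this shift in the results was not tested.

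With SD70, 9 of the 10 enzymes rose, by amounts from 1.18-fold for Mthfd1l to 3.43-fold for Mthfd2, and Mthfd1, at 1.10-fold, did not pass the test. In all 10 genes, the lowest SD70 sample lay above the highest DMSO sample, a separation seen in this direction in 32.8% of all genes tested. By edgeR's quasi-likelihood test, 9 of the 10 genes rose at an adjusted p-value under 0.01, against 25.8% of all genes tested, and 0 fell, against 24.2%. In either direction 49.9% of all genes tested passed. These shares are not matched for expression level. With DMSO, each of the 10 genes except Shmt1 was above at least 70.6% of all genes tested in FPKM. The gene that did not pass was Mthfd1, and 0 of the 10 fell at an unadjusted p under 0.05, nor did any fall by DESeq2 or limma. At the stricter call, which adds a log2 fold change of at least 1, 4 of the 10 genes were higher (Mthfd2, Psph, Asns and Shmt2), against 3.29% of all genes tested, and 0 were lower, against 2.61%. The median log2 fold change of the 10 genes was 0.85, and that of all genes tested was -0.00432. In RNA from whole cultures, a change in the cells that express a gene and a change in RNA per cell cannot be told apart. SD70 sample 3 had the highest normalized count of its group in 10 of the 10 genes and was the shallowest library, and the part of that library in the results was tested by leaving it out. Without it, the 10 log2 fold changes ranged from 0.11 for Mthfd1 to 1.68 for Mthfd2. DMSO sample 1 had the lowest normalized count of its group in 8 of the 10 genes. Without DMSO sample 1, the log2 fold change was 0.09 for Mthfd1 and 1.72 for Mthfd2. Such shifts were shared by the genes, so their separations between the groups are not independent observations.

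**Figure D1:**
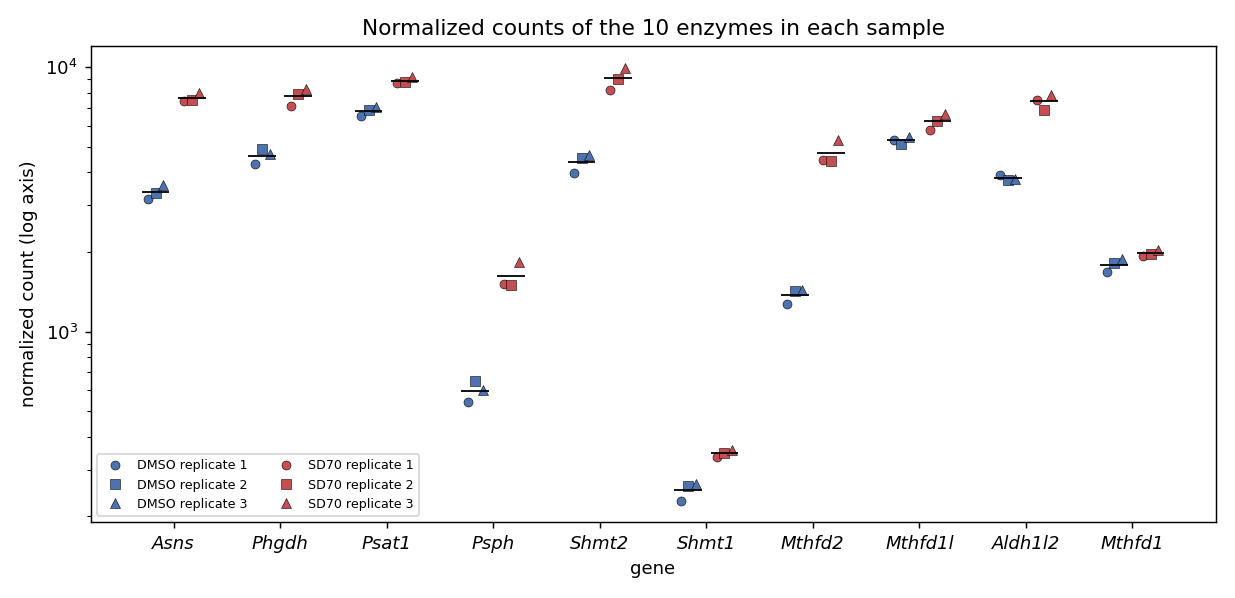
Normalized counts (log axis) of the 10 enzymes in each of the 3 DMSO (blue) and 3 SD70 (red) samples, with the mean as a line. Every SD70 point lies above every DMSO point of the same gene, by a wide gap in Mthfd2 and by a narrow one in Mthfd1 and Mthfd1l.

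**Figure D2:**
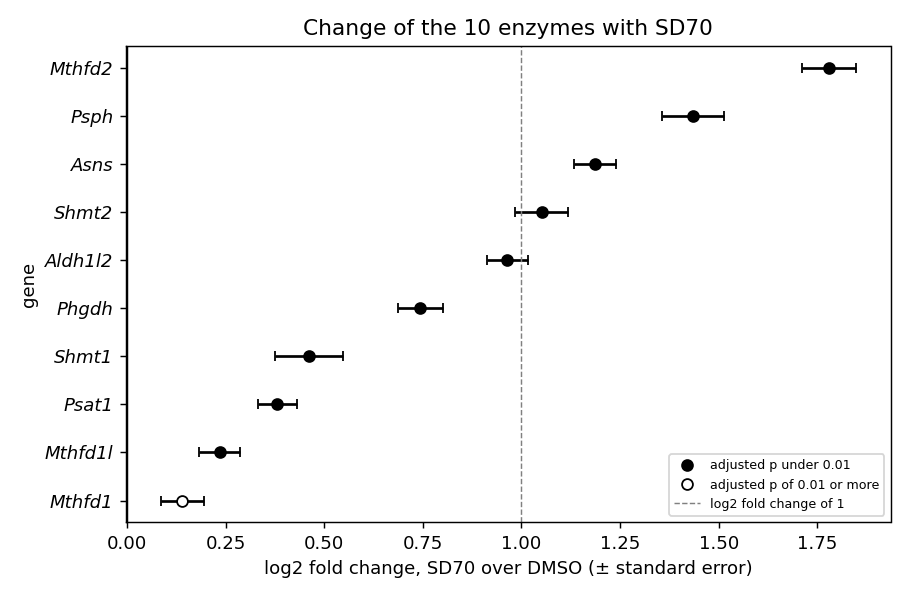
Log2 fold change of each enzyme with its standard error, SD70 over DMSO, in order of size. Mthfd2 is at 1.78 and Mthfd1, the open symbol, at 0.14; Shmt2 and Aldh1l2 lie on either side of 1, each within its standard error of it.

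Asns, asparagine synthetase (NCBI Gene 27053, chr6:7675165-7693209 on the minus strand, GRCm38.p6), had 3177, 3337 and 3573 in DMSO samples 1 to 3, against 7437, 7503 and 8022 in SD70 samples 1 to 3. These are normalized counts, scaled to a common library size, as are the values of the genes after it unless FPKM is named. The lowest SD70 sample was 2.08 times the highest DMSO sample. The gene rose 2.28-fold, from 3362 ± 199 to 7654 ± 321 (SD, n = 3 per group), with a log2 fold change of 1.19 ± 0.0523 (SE) and an edgeR adjusted p of 6.41e-20. Its level per length went from 117 ± 6.19 FPKM to 261 ± 11.7 FPKM (SD, n = 3 each), which moved Asns from place 656 to place 271 among all genes tested. Of all genes tested, 2.16% had a larger log2 fold change.

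The 250 bases before the start site were searched in 9 of the 10 genes, those with a RefSeq promoter entry of GRCm38.p6, for TGATGNAA, the core of the composite element that C/EBP and ATF factors bind, for TGACGTCA, the cyclic AMP response element, and for CACGTG, the E-box, on both strands. TGATGNAA was found in 1 of the 9 genes, Asns, and in 2.46% of the 9284 genes tested that have an entry. TGACGTCA was found in 0 of the 9 and in 3.16% of those tested, and CACGTG in 0 of the 9 and in 10.0% of those tested. A match describes the letters, and a lack of one says only that these letters are not in the window. The stretch before the Asns start site is shown because it holds the one match, given in capitals, from base 23 to base 16 before the start (chr6:7693210-7693459, minus strand).
Asns: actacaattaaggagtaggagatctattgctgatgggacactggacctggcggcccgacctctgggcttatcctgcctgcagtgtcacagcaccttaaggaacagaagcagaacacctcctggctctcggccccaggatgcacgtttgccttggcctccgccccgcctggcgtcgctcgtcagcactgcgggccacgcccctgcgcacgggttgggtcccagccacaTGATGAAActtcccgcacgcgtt

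The 3 genes of serine synthesis all rose, and the last step rose most. Phgdh, the dehydrogenase of the first step (NCBI Gene 236539, chr3:98313171-98339969 on the minus strand), had 4304, 4923 and 4688 in DMSO samples 1 to 3, against 7116, 7896 and 8289.6 in SD70 samples 1 to 3. The groups were well apart, and the gene rose 1.67-fold, from 4638 ± 312 to 7767 ± 597 (SD, n = 3 per group), with a log2 fold change of 0.74 ± 0.0566 (SE) and an edgeR adjusted p of 1.38e-12. Psat1, the aminotransferase of the second step (NCBI Gene 107272, chr19:15905123-15925059 on the minus strand), had 6554, 6878 and 7056 in DMSO samples 1 to 3, against 8730.3, 8784 and 9174 in SD70 samples 1 to 3. Its rise was 1.30-fold, from 6829.5 ± 255 to 8896 ± 242 (SD, n = 3 per group), with a log2 fold change of 0.38 ± 0.0487 (SE) and an edgeR adjusted p of 2.82e-08. Psph, the phosphatase that releases serine (NCBI Gene 100678, chr5:129765558-129787443 on the minus strand), had 539.8, 651 and 602 in DMSO samples 1 to 3, against 1517, 1502 and 1834 in SD70 samples 1 to 3. SD70 sample 3 stood above the other two, and the log2 fold change without it was 1.33. Psph rose 2.70-fold, from 598 ± 55.6 to 1618 ± 188 (SD, n = 3 per group), with a log2 fold change of 1.43 ± 0.0790 (SE) and an edgeR adjusted p of 2.68e-12. The spans of Psph and Cct6a, which runs the other way, share 88 bases, and the sources used here do not say whether the counting used strand.

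The step with the fewest transcripts per length changed most within serine synthesis. The ratio of Psat1 to Psph in FPKM was 8.28, 7.24 and 8.05 for DMSO, against 3.94, 4.01 and 3.42 for SD70. The ratio of Phgdh to Psph was 6.41, 6.10 and 6.28 for DMSO, against 3.78, 4.24 and 3.64 for SD70. Both ratios were lower in every SD70 sample than in any DMSO sample. The FPKM of the 3 genes summed rose from 402 ± 19.3 for DMSO to 610.0 ± 36.0 for SD70 (SD, n = 3 per group).

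The letters CCAAT, the core of the box that the factor NF-Y binds, were searched on both strands after the sequences had been seen. They occurred before the start of 6 of the 9 genes (Phgdh, Psat1, Psph, Shmt1, Mthfd2 and Mthfd1), against 42.0% of the genes tested with an entry. Mthfd1, which did not pass the test, is one of the 6, and Asns and Shmt2, which rose by over 2-fold, are not. Psph also held a pair of matches before its start site, in a stretch not shown. The stretches before the start site of Phgdh and the first one of Psat1, shown here, hold a pair of matches each, in capitals (chr3:98339970-98340219 and chr19:15925060-15925309, both minus strand).
Phgdh: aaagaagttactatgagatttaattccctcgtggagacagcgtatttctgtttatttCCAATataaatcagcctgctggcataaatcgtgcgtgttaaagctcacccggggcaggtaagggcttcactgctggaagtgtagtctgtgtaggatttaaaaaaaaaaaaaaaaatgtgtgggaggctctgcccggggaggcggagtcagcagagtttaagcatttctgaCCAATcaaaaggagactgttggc
Psat1: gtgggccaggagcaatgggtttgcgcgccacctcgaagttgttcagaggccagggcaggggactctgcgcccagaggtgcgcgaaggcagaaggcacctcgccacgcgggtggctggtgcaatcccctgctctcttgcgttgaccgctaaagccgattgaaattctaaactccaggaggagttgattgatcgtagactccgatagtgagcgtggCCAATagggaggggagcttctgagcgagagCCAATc

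The mitochondrial hydroxymethyltransferase rose more than the cytosolic one. Shmt2 (NCBI Gene 108037, chr10:127517123-127522444 on the minus strand) had 3991, 4529.7 and 4641 in DMSO samples 1 to 3, against 8229, 9068 and 9984 in SD70 samples 1 to 3. It rose 2.07-fold, from 4387 ± 347 to 9093 ± 878 (SD, n = 3 per group), with a log2 fold change of 1.05 ± 0.0668 (SE) and an edgeR adjusted p of 6.79e-11. The groups did not overlap, but the value lay close to the limit of the stricter call and was 0.97 without SD70 sample 3 and 0.99 without DMSO sample 1. Its span shares 32 bases with that of Ndufa4l2 on the other strand. Shmt1 (NCBI Gene 20425, chr11:60788897-60811265 on the minus strand) had 229, 260.3 and 264 in DMSO samples 1 to 3, against 336, 346 and 356 in SD70 samples 1 to 3, the lowest counts of the 10 genes. It rose 1.38-fold, from 251 ± 19.1 to 346 ± 10.3 (SD, n = 3 per group), with a log2 fold change of 0.46 ± 0.0860 (SE) and an edgeR adjusted p of 2.15e-05.

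Of Mthfd2, Aldh1l2 and Mthfd1l, the members that act after Shmt2 in mitochondria, Mthfd2 rose most, Aldh1l2 came next and Mthfd1l changed least. Mthfd2, the dehydrogenase and cyclohydrolase that is high in embryos and tumours (NCBI Gene 17768, chr6:83305704-83326011 on the minus strand), had 1269.7, 1424 and 1433 in DMSO samples 1 to 3, against 4442, 4414 and 5314 in SD70 samples 1 to 3. Its lowest SD70 sample was 3.08 times its highest DMSO sample, the widest gap of the 10 genes, and SD70 sample 3 was again the highest. The gene rose 3.43-fold, from 1375 ± 91.6 to 4723 ± 512 (SD, n = 3 per group), with a log2 fold change of 1.78 ± 0.0683 (SE) and an edgeR adjusted p of 3.02e-15. Only 0.874% of the genes tested had a larger log2 fold change. The CCAAT matches before the Mthfd2 start are shown as the sites of the gene that rose most, from the farthest to the nearest, at chr6:83317685-83317711, chr6:83317636-83317662 and chr6:83317611-83317637, all read along the minus strand. This start site lies within the span given for the gene, which begins farther upstream. The same holds for the start sites used for Psph, Mthfd1l and Mthfd1.
Mthfd2 far: gactccttcagCCAATcaggacctgct
Mthfd2 middle: tgagatctcctATTGGctcctacgccg
Mthfd2 near: cggctcaggggCCAATgggcgcgcggg

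Aldh1l2, which oxidises formyl-tetrahydrofolate in mitochondria (NCBI Gene 216188, chr10:83487447-83534146 on the minus strand), had 3927, 3743 and 3774 in DMSO samples 1 to 3, against 7557, 6903 and 7868 in SD70 samples 1 to 3. It rose 1.95-fold, from 3815 ± 98.6 to 7443 ± 493 (SD, n = 3 per group), with a log2 fold change of 0.96 ± 0.0521 (SE) and an edgeR adjusted p of 1.78e-17. This lay just under the fold limit of the stricter call, and without SD70 sample 2, the lowest of its group, the log2 fold change was 1.02 and the gene was called. Mthfd1l, the mitochondrial formyltetrahydrofolate synthetase (NCBI Gene 270685, chr10:3972892-4167081 on the plus strand), had 5325, 5136 and 5461 in DMSO samples 1 to 3, against 5806, 6279 and 6659 in SD70 samples 1 to 3. The lowest SD70 sample was 1.06 times the highest DMSO sample. The rise was 1.18-fold, from 5307 ± 163 to 6248 ± 428 (SD, n = 3 per group), with a log2 fold change of 0.24 ± 0.0519 (SE) and an edgeR adjusted p of 2.09e-04.

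The cytosolic enzyme Mthfd1 (NCBI Gene 108156, chr12:76254406-76319820 on the plus strand) was the enzyme that did not pass, with an adjusted p under 0.05 but above 0.01. Its normalized counts were 1678, 1817 and 1883 in DMSO samples 1 to 3, against 1928, 1966 and 2033 in SD70 samples 1 to 3. The samples of the groups did not overlap, but the gap between them was narrow, the lowest SD70 sample being 1.02 times the highest DMSO sample. Mthfd1 went from 1793 ± 104 to 1976 ± 53.1 (SD, n = 3 per group), with a log2 fold change of 0.14 ± 0.0543 (SE) and an edgeR adjusted p of 0.026. Over 13 alternatives the adjusted p of Mthfd1 from edgeR, DESeq2 or limma ranged from 0.0182 to 0.173. For each of the 10 genes taken alone, an exact permutation test of the 3 SD70 against the 3 DMSO samples gave a two-sided p of 0.1, the smallest that this design allows. The counts of all 10 genes were whole numbers in every sample, which shows no read shared out in fractions between them and other genes. The spans of Mthfd1l, Aldh1l2 and Mthfd1 also hold RNA genes or a pseudogene of their own (3, 1 and 2 genes). Gm16074 and Gm25515 in Mthfd1l lie on the strand of that gene, and the strand of the other 4 was not determined here.

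Compared per length, the levels of the 10 genes spanned 25.7-fold with DMSO and 25.0-fold with SD70, but their order changed. With DMSO, the order from the highest mean FPKM was Psat1 at 208 ± 6.87, Phgdh at 167 ± 11.2, Shmt2 at 126 ± 9.55, Asns at 117 ± 6.19, Mthfd1l at 91.6 ± 2.47, Mthfd2 at 44.2 ± 2.81, Aldh1l2 at 40.4 ± 0.972, Mthfd1 at 34.7 ± 1.95, Psph at 26.6 ± 2.44 and Shmt1 at 8.10 ± 0.598 (SD, n = 3 each). Of neighbours in this order, the samples of Shmt2 and Asns overlapped, as did those of Mthfd2 and Aldh1l2. With SD70, Phgdh at 273 ± 21.7, Psat1 at 266 ± 7.89, Asns at 261 ± 11.7 and Shmt2 at 255 ± 25.2 overlapped from each to the next, so the order of these 4 genes was not resolved. They were followed by Mthfd2 at 149 ± 16.5, Mthfd1l at 105 ± 7.39, Aldh1l2 at 77.4 ± 5.11, Psph at 70.7 ± 8.46, Mthfd1 at 37.4 ± 1.07 and Shmt1 at 10.9 ± 0.357. Among these only Aldh1l2 and Psph overlapped. Mthfd2 moved above Mthfd1l, the ratio of Mthfd1l to Mthfd2 in FPKM being 2.25, 1.93 and 2.05 for DMSO, against 0.700, 0.764 and 0.670 for SD70. Asns came level with Psat1, at a ratio of 0.553, 0.553 and 0.576 for DMSO, against 0.971, 0.973 and 0.997 for SD70. The 10 genes together took between 0.189% and 0.204% of all counts in the DMSO samples and between 0.315% and 0.354% in the SD70 samples.

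**Figure D3:**
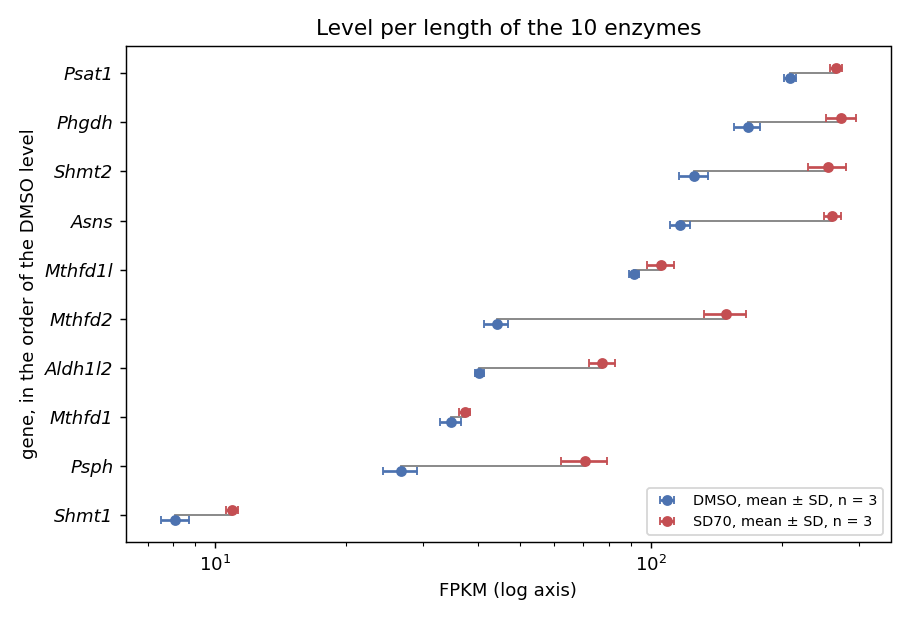
FPKM of the 10 enzymes (log axis), mean ± SD of 3 samples per group, ordered by the DMSO level. With SD70, Phgdh, Psat1, Asns and Shmt2 lie within 255 to 273 FPKM, while Mthfd1 and Shmt1 stay at the low end.

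Whether related enzymes changed by different amounts was asked with the ratio of FPKM between partners, sample by sample. Shmt2 with Shmt1 and Mthfd1l with Mthfd1 each pair a mitochondrial with a cytosolic enzyme, whereas Mthfd2 and Mthfd2l are both mitochondrial. The Shmt2 to Shmt1 ratio was 15.5, 15.4 and 15.6 for DMSO, against 21.7, 23.3 and 24.8 for SD70. It rose 1.50-fold, a log2 difference of 0.58, and the groups did not overlap. The Mthfd2 to Mthfd2l ratio was 2.41, 2.75 and 2.71 for DMSO, against 9.35, 9.35 and 12.8 for SD70. It rose 3.96-fold, a log2 difference of 1.99, again without overlap, with SD70 sample 3 the highest. Mthfd2l, the paralog of Mthfd2, had 573, 565 and 575 in DMSO samples 1 to 3, against 518, 513 and 452 in SD70 samples 1 to 3 in normalized counts, a log2 fold change of -0.21 ± 0.0715 (SE) and an edgeR adjusted p of 0.013. The Mthfd1l to Mthfd1 ratio was 2.83, 2.52 and 2.58 for DMSO, against 2.68, 2.85 and 2.92 for SD70. Its groups overlapped, with a log2 difference of 0.09. By exact permutation tests, two-sided, the p-values were 0.1, 0.1 and 0.2, and 0.15, 0.15 and 0.2 after Benjamini-Hochberg adjustment over the 3 pairs, the first 2 being the smallest p that 3 samples against 3 allow. For Aldh1l1, the cytosolic partner of Aldh1l2, at most 4 counts were listed in any sample, and no ratio was formed. As a description, the FPKM of Shmt2, Mthfd2, Mthfd1l and Aldh1l2 summed went from 302 ± 11.5 for DMSO to 587 ± 50.2 for SD70 (SD, n = 3 per group). That of Shmt1 and Mthfd1 went from 42.8 ± 2.53 for DMSO to 48.4 ± 1.43 for SD70 (SD, n = 3 per group).

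**Figure D4:**
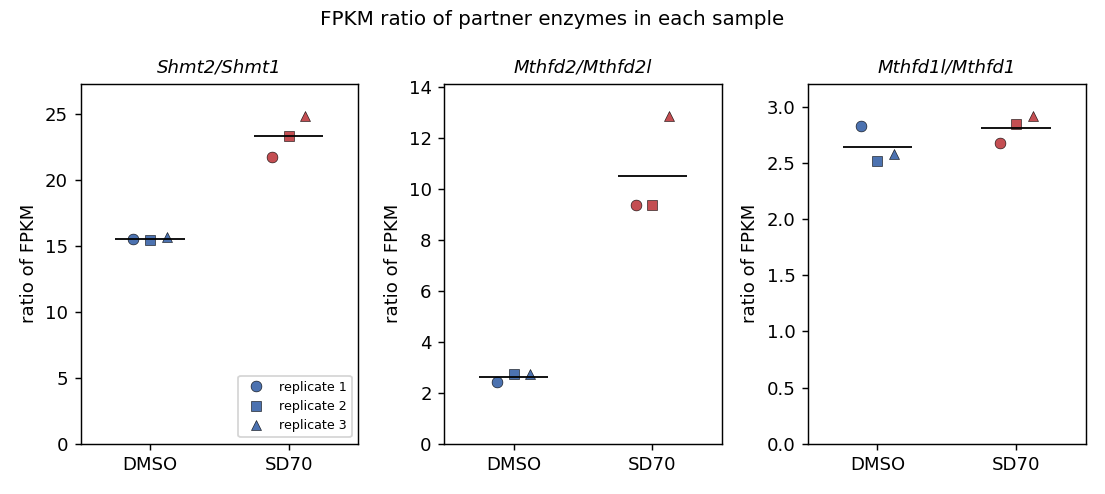
Ratio of FPKM between partner enzymes in each of 3 DMSO and 3 SD70 samples, with the mean as a line, on axes from 0. The Shmt2 to Shmt1 and Mthfd2 to Mthfd2l ratios are higher in every SD70 sample, and the Mthfd1l to Mthfd1 ratio overlaps between the groups.

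The neighbouring lists of folate and amino acid metabolism each had log2 fold changes on both sides of 0. Of 12 other folate enzymes and carriers tested, 5 rose and 2 fell at an adjusted p under 0.01 by edgeR, with a median log2 fold change of -0.01. Of all genes tested, 25.8% rose and 24.2% fell at this threshold, the shares against which the counts of this and the following lists are to be read. Slc19a1, the reduced folate carrier, rose from 258 ± 14.4 to 531 ± 59.0 (SD, n = 3 per group), a log2 fold change of 1.04 ± 0.0851 (SE) and an edgeR adjusted p of 1.10e-12. Fpgs, which retains folates in the cell by adding glutamates, rose 1.83-fold (log2 fold change 0.87), and Slc25a32, the mitochondrial folate carrier, 1.53-fold (log2 fold change 0.61). Slc19a1 passed the stricter call, close to its limit, and was not called without SD70 sample 3, with limma on log2(FPKM + 1) or with edgeR's glmTreat. Mthfs was lower, from 279 ± 30.7 to 219 ± 11.6 (SD, n = 3 per group), a log2 fold change of -0.35 ± 0.0967 (SE) and an edgeR adjusted p of 0.00227. The counts of Mthfs and of its neighbour Mthfsl were not whole in any of the 6 samples, so how reads were divided between these copies is uncertain.

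Of 8 genes that use one-carbon units for purines and thymidylate or belong to the same chains, 5 rose and 1 fell (Paics, -0.22 on the log2 scale), none by 2-fold, with a median log2 fold change of 0.25. Ppat, the first step of purine synthesis, rose 1.42-fold (log2 fold change 0.51). Atic, which adds the last formyl group of the purine ring, rose 1.33-fold (log2 fold change 0.41). Pfas rose 1.25-fold (log2 fold change 0.32) and Tyms, thymidylate synthase, 1.23-fold (log2 fold change 0.30). The counts of Ppat, Paics and Tyms were not whole in at least 5 of the 6 samples, so how reads were divided between them and similar genes is uncertain. Of 8 genes of glycine and serine breakdown tested, 3 rose and 0 fell at this threshold, with a median of 0.23. They were Dld, the lipoamide dehydrogenase shared by several complexes (1.67-fold, log2 fold change 0.74), Srr, serine racemase (1.19-fold, log2 fold change 0.26), and Gcsh, the carrier protein of the glycine cleavage system (1.15-fold, log2 fold change 0.20). The counts of Srr were not whole in any of the 6 samples and are uncertain in the same way. Gldc, the decarboxylase of that system, was low, at 0.450 FPKM with DMSO and 0.597 with SD70.

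In the methionine cycle and transsulfuration, 3 of 8 genes tested rose and 1 fell, with a median log2 fold change of 0.02. Cth, which makes cysteine from cystathionine, had 169, 179 and 175 in DMSO samples 1 to 3, against 564, 569 and 756 in SD70 samples 1 to 3. It rose 3.60-fold, a log2 fold change of 1.85 ± 0.105 (SE) and an edgeR adjusted p of 4.22e-13, with SD70 sample 3 again the highest. Mat2a, the catalytic subunit of S-adenosylmethionine synthesis, rose 1.72-fold (log2 fold change 0.78), and its regulatory subunit Mat2b fell (log2 fold change -0.51). Mtrr, which reactivates methionine synthase, rose 1.70-fold (log2 fold change 0.76). Cbs, the enzyme before Cth, was at or near 0 in every sample, with 0 counts in the DMSO group and at most 3 in the SD70 group, and was not tested.

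Of 15 enzymes of aspartate, asparagine, glutamine and proline tested, 6 rose and 1 fell, with a median of -0.00113. Gpt2, the mitochondrial alanine aminotransferase, rose 3.33-fold, from 1348 ± 82.1 to 4499 ± 571 (SD, n = 3 per group), a log2 fold change of 1.74 ± 0.0793 (SE) and an edgeR adjusted p of 6.34e-11. Aldh18a1 and Pycr1, the first and last enzymes of proline synthesis in mitochondria, rose 2.23-fold (log2 fold change 1.16) and 1.95-fold (log2 fold change 0.96). Got1, the cytosolic aspartate aminotransferase, rose 1.70-fold (log2 fold change 0.76), while its mitochondrial counterpart Got2 did not pass, with an edgeR adjusted p of 0.985. Glul, glutamine synthetase, was the gene that fell, with a log2 fold change of -0.59. Of 8 genes that build serine into lipids or membranes, 2 rose and 2 fell, close to the shares among all genes, with a median of 0.07. Sptssa, a subunit of serine palmitoyltransferase, fell (log2 fold change -0.38), as did Serinc2 (-0.41), while Serinc1 (0.30) and Sptlc1 (0.25) rose. The medians of these lists lay between -0.01 and 0.25, against 0.85 for the 10 enzymes, with no test of the difference.

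**Figure D5:**
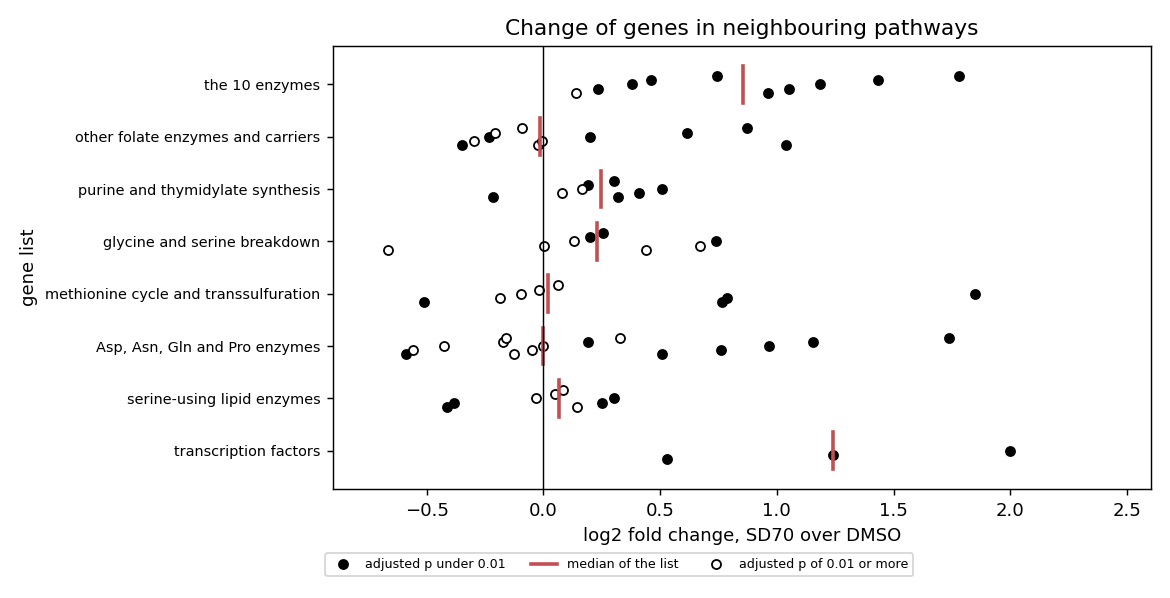
Log2 fold change (SD70 over DMSO) of each tested gene of the 10 enzymes and of 7 other lists, except 1 folate gene that is not drawn, with the median of each list in red and filled symbols at an adjusted p under 0.01. The 10 enzymes and the 3 transcription factors lie wholly above 0, and each of the other lists lies on both sides of it.

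The transcription factors best known to act on these genes also rose. Atf4 had 6823, 7833 and 8832 in DMSO samples 1 to 3, against 30740.2, 32089 and 31069 in SD70 samples 1 to 3. It rose 4.00-fold, a log2 fold change of 2.00 ± 0.0713 (SE) and an edgeR adjusted p of 1.57e-13, from 307 to 1204 FPKM. Myc rose 2.36-fold, from 5823 ± 296 to 13749 ± 627 (SD, n = 3 per group), a log2 fold change of 1.24 ± 0.0512 (SE) and an edgeR adjusted p of 1.06e-20. Nfe2l2, which encodes NRF2, rose 1.44-fold, from 5592 ± 85.3 to 8070.5 ± 333 (SD, n = 3 per group), a log2 fold change of 0.53 ± 0.0488 (SE) and an edgeR adjusted p of 2.12e-11. The part of these factors in the rise of the enzymes was not tested.

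The genes whose pattern over the 6 samples was most like that of Asns or of Mthfd2 were sought among 9613 genes whose normalized counts averaged at least 100. Likeness was the root mean square difference between log2 normalized counts, each centred on its mean. For Asns they were Nars, the cytosolic asparaginyl-tRNA synthetase (difference 0.0258, log2 fold change 1.18), Sod2, the mitochondrial superoxide dismutase (0.0261, 1.18), and Rheb, the small GTPase that activates mTORC1 (0.0342, 1.15). For Mthfd2 they were Gpt2 (difference 0.0305, log2 fold change 1.74), Clic4, an intracellular chloride channel protein (0.0545, 1.72), and Slc7a5, a carrier of large neutral amino acids (0.0591, 1.75). With 6 samples in 2 groups, this likeness rests mostly on the size of the difference between the groups.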

How the data were processed

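RNA-seq of Lewis cells kept for 24 hours with DMSO or SD70 gave 3 samples per group, grouped by the sample labels. Per the paper's methods, reads from the BGISEQ-500 platform were aligned to GRCm38.p6 with HISAT. The submitters' processing notes list StringTie 1.3.3b and the build mm8. RefSeq coordinates of GRCm38.p6 were used here. The counting tool and strand setting are not given in the sources used here. For each gene the authors deposited an expected count, not normalized, and a second value headed exp, read here as FPKM because, with the count and the total, it gave lengths close to those of annotated transcripts.

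Expected counts, of which 8.84% to 9.28% per sample were not whole, were rounded, filtered by filterByExpr, scaled by TMM (factors 0.984 to 1.02) and fitted with the robust glmQLFit of edgeR 4.0.16 (R 4.3.3). The glmQLFTest p-values received Benjamini-Hochberg adjustment over 11552 genes. Normalized counts were scaled to the mean effective library size. Standard errors were derived from the F statistic. A call needed an adjusted p under 0.01 and a log2 fold change of 1 or more in size. The precision is limited by 3 samples per group. Samples of a group differed by more than counting noise (chi-square per gene 2.12 to 4.97).

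The genes and lists were chosen with earlier results of these data known. Named outside the 10 genes were at most 4 per list, those passing with the largest change, the partner enzymes, 3 transcription factors and 3 genes nearest in pattern to each of Asns and Mthfd2. Gldc, Cbs, Mthfs, Mthfsl, Paics, Glul, Got2 and the markers of cell types were named beyond this rule, after their values were seen. Pycr3 was found as Pycrl. The values of 1 gene of the other folate list are not reported here, though the counts and median of that list include it. Alternatives were DESeq2's size factors, other count filters, a replicate block, each sample left out, DESeq2 1.42.0, limma 3.58.1 on log2(FPKM + 1) and on log2(FPKM + 0.1), glmTreat and an adjusted p under 0.05. The scripts were tested on simulated data. Promoters came from RefSeq, with 9 of 10 genes matched.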

Additional observations from a re-analysis of the deposited data

How the results depend on the processing

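All 130 log2 fold changes of the 10 enzymes under the alternatives kept their direction and their side of an adjusted p of 0.01. Between 3 and 5 of the 10 were called higher over 15 alternatives, and 0 lower. The count was 3 without DMSO sample 1 or SD70 sample 3 (Shmt2 lost) and with glmTreat, and 5 without SD70 sample 2 (Aldh1l2 gained). Among all genes, 380 were called higher and 301 lower. limma on log2(FPKM + 1), which understates the change of low genes, gave 202 and 81, and glmTreat, which tests for a log2 fold change above 1, gave 177 and 44. With each sample left out, 347 to 408 genes were called higher and 252 to 326 lower. The log2 differences of the partner ratios kept their sign in 8 alternatives each. The lowest to highest were 0.54 to 0.63 for Shmt2 to Shmt1, 1.83 to 2.06 for Mthfd2 to Mthfd2l and 0.06 to 0.14 for Mthfd1l to Mthfd1.

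Both groups carry the numbers 1 to 3, and no source says what a number shares. Deviations of same-numbered samples from their group means had a Pearson r of 0.18, 0.28 and 0.17 over 9623 genes with a mean count of at least 100, but a Spearman rho of 0.15, -0.02 and -0.00389, and at a mean count of at least 500 a Pearson r of 0.17, -0.03 and -0.03, so the numbers were not taken to pair the samples. With the replicate number as a block, 4 of the 10 enzymes were called, Mthfd2 had a log2 fold change of 1.78 and Mthfd1 of 0.14 (adjusted p = 0.0182 from edgeR), and 0 calls of the 10 enzymes changed. Shmt1 had the fewest counts of the 10 enzymes. The precision of all of them is limited by 3 samples per group.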
